A study of Mus musculus with 17 samples.

Results

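The heterotrimeric G protein alpha subunits expressed in mouse prefrontal cortex were measured by bulk RNA sequencing of polyA RNA. The members were the genes whose symbol in the count table was Gnas, Gnal, Gnai1, Gnai2, Gnai3, Gnao1, Gnaz, Gnaq, Gna11 or Gna14, and all 10 were found, each in 1 row of the 56953 genes listed. They were grouped into 3 classes, with 2 genes in the Gs class, 5 in the Gi/o class and 3 in the Gq class. The 17 libraries came from 3 genotypes, 5 of WT, 6 of PS19 (hTau in the labels) and 6 of CgA-KO/PS19 (CgA-KO/hTau in the labels), all prefrontal cortex of mice on the B6C3F1/J background, 8 months old by the labels and a month older in a figure legend of the study. PS19 and CgA-KO/PS19 mice both carried human Tau bearing the P301S mutation as a transgene driven by the mouse prion promoter (Prnp), which is active in many cell types and brain regions. CgA-KO/PS19 mice also lacked chromogranin A (CgA, encoded by Chga) throughout the body from conception, and a CgA-KO group without Tau was not among the sequenced libraries, so the effect of the deletion was measured only in mice with Tau. The sex of each animal was not given beside its library.

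An alpha subunit binds GDP at rest and, together with a beta and a gamma subunit, couples a receptor such as an adrenergic receptor to enzymes inside the cell. An activated receptor makes the alpha subunit exchange GDP for GTP, which frees it from the beta and gamma subunits, and hydrolysis of the GTP, sped up by RGS proteins, ends the signal. Gs subunits stimulate adenylate cyclase, Gi/o subunits inhibit it and release beta and gamma subunits that open potassium channels, and Gq subunits stimulate phospholipase C beta. Alpha1-adrenergic receptors act mainly through Gq, alpha2 receptors through Gi/o and beta receptors through Gs, so the members are the step that follows the receptors at the centre of the study.

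The C terminus of an alpha subunit is the part that reads the receptor, and it is what sets the classes apart in sequence. The last 8 codons and the stop codon of 9 members are shown because they hold both the class signature and the site of pertussis toxin, which modifies a cysteine at the fourth codon from the end. They were read 5′ to 3′ on the coding strand from the GENCODE M21 transcript sequences, with positions on GRCm38 (mm10). In each gene they lay in 1 coding exon. The capitals mark the fourth codon from the end.
Gnas (chr2:174346362-174346388, plus strand): catctccgccaaTACgagctgctctaa
Gnai1 (chr5:18267019-18267045, minus strand): aacctaaaagacTGTggtctcttctaa
Gnai2 (chr9:107615635-107615661, minus strand): aacctgaaggacTGTggcctcttctga
Gnai3 (chr3:108109422-108109448, minus strand): aacttaaaggaaTGTgggctttattga
Gnao1 (chr8:93967029-93967055, plus strand): aatctccggggcTGCggcttgtactga
Gnaz (chr10:75015186-75015212, plus strand): aatctcaagtacATCggcctttgctga
Gnaq (chr19:16383368-16383394, plus strand): aacctgaaggagTACaatctggtctaa
Gna11 (chr10:81530795-81530821, minus strand): aacctgaaggagTACaacctggtgtga
Gna14 (chr19:16609504-16609530, plus strand): aacctacgggagTTCaacttggtgtaa
The marked codon was TGT or TGC, both of which encode cysteine, in Gnai1, Gnai2, Gnai3 and Gnao1. Gnaz, the remaining Gi/o gene, had ATC there, and it encodes the alpha subunit known to be insensitive to pertussis toxin. Gnaq and Gna11 shared TAC, which Gnas also carried, and Gna14 had TTC. Gnal had no cysteine codon at this place either in the tail examined, and its sequence is not shown. Of the coding transcripts annotated, 7 of 14 for Gnas, 3 of 7 for Gnal, 2 of 3 for Gnai2 and 2 of 3 for Gnao1 ended in the tail examined, so other ends exist for these genes.

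Counts per library summed to between 8838334 (WT replicate 4) and 227651681 (PS19 replicate 6). They were not fragments: low counts peaked at 3 and 6 in all 17 libraries, so that 1 fragment was worth about 3 counts. Levels are given as CPM, counts scaled to the same library total after a TMM factor had aligned the bulk of the genes between libraries. Chga was at 0 counts in 6 of 6 CgA-KO/PS19 libraries, against 152 to 180.1 CPM in WT and 162 to 177 CPM in PS19. PS19 replicates 4, 5 and 6 stood apart by being very alike, with a robust SD of the log2 ratio of 0.0523 to 0.0607 over the 3761 genes that reached 500 counts in each of the 17 libraries, as did CgA-KO/PS19 replicates 1 and 3 with 0.0980. Every other pair of one genotype was at 0.146 or more. The alike PS19 libraries differed by 1.95 to 2.32 times the counting error, which cannot show whether they came from separate animals. Each was kept as a sample because the labels list it as a replicate. The PS19 spread and the FDR values therefore depend on that choice, and several results are also given with these libraries averaged. Replicates 1 to 3 of every genotype carried the Y-linked Ddx3y, a mark of males, and the libraries from replicate 4 on had almost none. These 2 sets are therefore compared below as well. Libraries also differed in markers of the striatum, the region beneath the cortex. The summed level of 18 striatum markers was 263 to 305 CPM in PS19, 1197 to 3643 CPM in WT and 262 to 2268 CPM in CgA-KO/PS19, where replicates 1 and 3 had 2226 and 2268 CPM, replicate 2 had 511 CPM and replicates 4 to 6 had 262 to 276 CPM. Markers of cortical excitatory neurons, the cell type that defines the labelled tissue, were present in all libraries, at 2486 to 5408 CPM summed over 7 genes. In bulk tissue, fewer cells of a type and less RNA per cell cannot be told apart.

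All members except Gna14 were well counted. To compare genes with each other, CPM was divided by the union exon length in kb, and on that scale Gnai1 was highest with a median of 75.1 CPM per kb over 17 libraries. Gnaq (61.9), Gnao1 (56.3), Gnas (38.0), Gnai2 (38.0), Gna11 (32.8), Gnaz (30.1), Gnal (21.9) and Gnai3 (10.1) followed as medians in CPM per kb, and Gna14 was lowest at 0.0570. Gnai1 was above Gnaq in 17 of 17 libraries, and Gnal was above Gnai3 and Gnai3 above Gna14 in 17 of 17. Several neighbours did not differ beyond the spread between libraries: Gnaq was above Gnao1 in 10 of 17, and Gnas was above Gnai2 in 8 of 17. The order at the top depended on the length used, because Gnao1, Gnas and Gnal have long alternative exons. With the longest coding transcript in place of the exon union, the median was 112.7 CPM per kb for Gnao1, 108 for Gnas, 75.1 for Gnai1 and 67.8 for Gnaq.

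**Figure D1:**
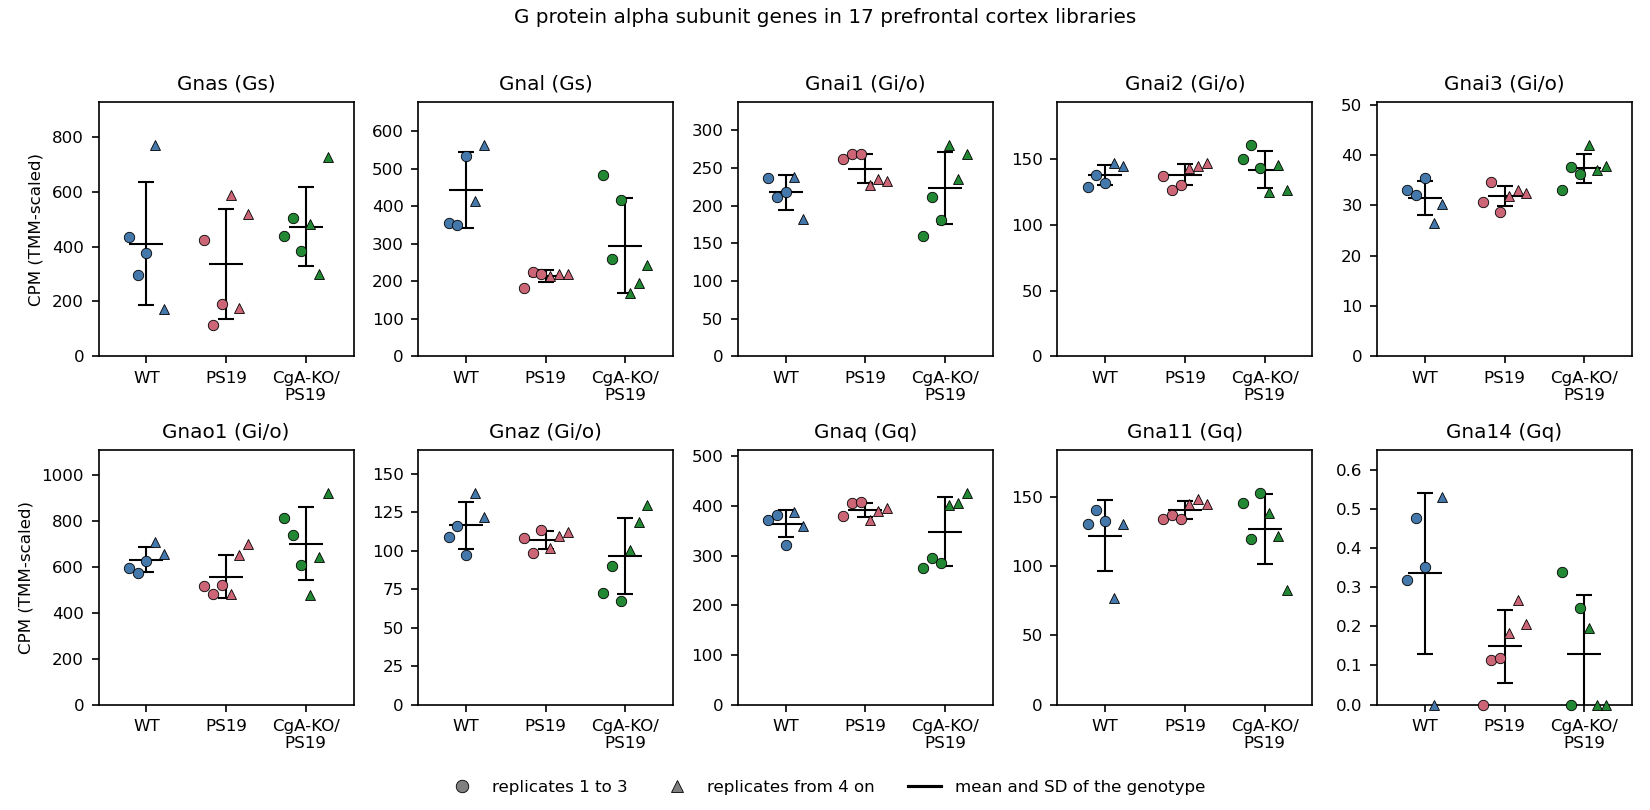
Level of each alpha subunit gene in every library, in TMM-scaled CPM (vertical axes start at 0 and differ between genes), by genotype. Circles are replicates 1 to 3, triangles the libraries from replicate 4 on, and bars the mean and SD. Gnal in WT lies above all PS19 libraries, Gnas spreads from 114 to 772 CPM, and Gnaq in CgA-KO/PS19 falls into 275 to 295 CPM (circles) and 402 to 427 CPM (triangles).

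Among the Gs genes, Gnal was higher in WT than in PS19, and it was the only member called between any genotypes. Gnal encodes G alpha olf, the stimulatory subunit that couples dopamine D1 and adenosine receptors to adenylate cyclase in the striatum and odorant receptors in the nose. It was at 354, 349.6, 533, 415 and 565 CPM in the 5 WT libraries. In PS19 it ranged from 182 to 224 CPM with a median of 219.6, and in CgA-KO/PS19 from 170.1 to 483 CPM with a median of 252. Every WT library was above every PS19 library, while the CgA-KO/PS19 libraries spread over the range of both. The mean was 214 ± 15.6 CPM in PS19 (SD, n = 6) against 443 ± 100.3 CPM in WT (SD, n = 5), while CgA-KO/PS19 had 295 ± 126 CPM (SD, n = 6). Gnal in WT was 2.08-fold that in PS19, a log2 fold change of 1.05 ± 0.23 (SE; 95% interval 0.58 to 1.53) with an FDR of 0.00926, where FDR is the edgeR quasi-likelihood p after Benjamini-Hochberg adjustment over 23062 genes and a call is an FDR under 0.05.

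In WT vs PS19, 1 of 10 members was called, against 5.9% of all genes tested, and 1 of 10 had libraries that did not overlap between the genotypes, against 9.52% of all genes. The Gnal call rested in part on the alike PS19 libraries. With PS19 replicates 4 to 6 averaged to 1 sample the log2 fold change was 1.08 and the edgeR FDR 0.0559, and with CgA-KO/PS19 replicates 1 and 3 averaged too it was 1.07 with an FDR of 0.0343. Within replicates 1 to 3 it was 0.99 (edgeR FDR = 0.0939) and within the libraries from replicate 4 on 1.14 (edgeR FDR = 0.0127). In the latter set PS19 consisted only of the 3 alike libraries, against 2 of WT, so its FDR rests on counting them as separate samples.

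Gnal moved with the striatum markers. Of those 18 genes, 17 were called higher in WT and 13 in CgA-KO/PS19, each against PS19, with median log2 fold changes of 4.13 and 3.02. The markers were chosen with earlier results of these data known. Neither these counts nor the marker score used below is therefore independent evidence on striatum content. Drd2, the dopamine D2 receptor, was at 0.601 to 1.31 CPM in PS19, 33.4 to 132 CPM in WT and 0.889 to 83.0 CPM in CgA-KO/PS19, and Isl1 was at 0 in every PS19 library. The 2 CgA-KO/PS19 libraries with the highest Gnal, replicates 1 and 3 at 483 and 417 CPM, were those with striatum marker sums of 2226 and 2268 CPM. With the mean centred log2 level of the 18 markers as a covariate, the log2 fold change of Gnal was 0.05 in WT vs PS19 (edgeR FDR = 0.853) and -0.08 in CgA-KO/PS19 vs PS19. That fit called 2 other members in WT vs PS19, against 17.7% of all genes, with Gnaz at 0.71 (edgeR FDR = 0.00279; 0.12 without the covariate) and Gnaq at 0.35 (edgeR FDR = 0.0270; -0.10 without it). Whether the Gnal difference came from the genotype or from how much striatum each sample held cannot be told apart in WT vs PS19, where the marker sums of the genotypes did not overlap.

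**Figure D2:**
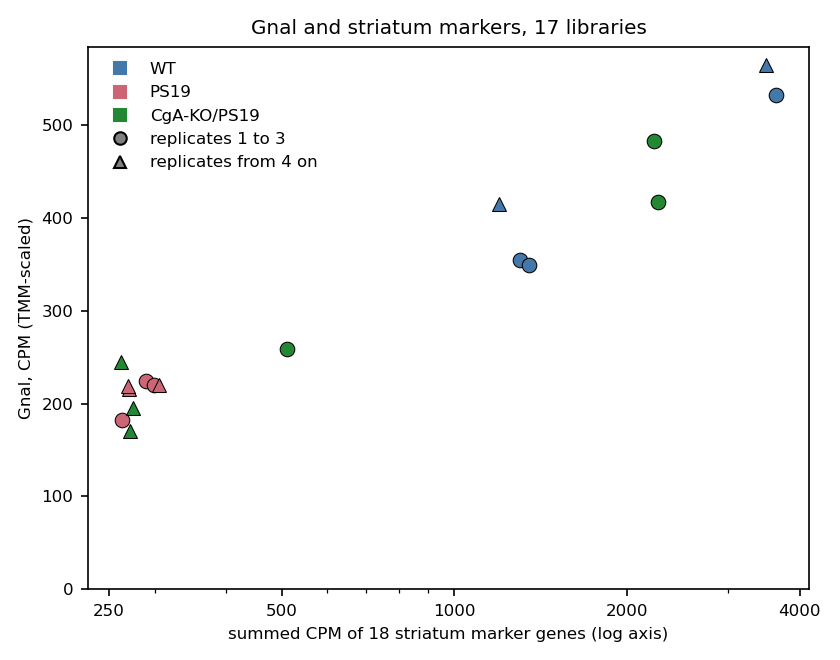
Gnal (TMM-scaled CPM, axis from 0) against the summed CPM of 18 striatum markers (log axis) in 17 libraries, coloured by genotype, with circles for replicates 1 to 3 and triangles for the libraries from replicate 4 on. The PS19 libraries and CgA-KO/PS19 replicates 4 to 6 sit together at 262 to 305 CPM of markers, and the WT libraries and CgA-KO/PS19 replicates 1 and 3 sit at 1197 CPM or more with Gnal at 349.6 CPM or above.

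The genes whose pattern over the 17 libraries was most like that of Gnal were Meis2, a homeobox transcription factor, Tbc1d8 and Zfhx3, a zinc finger homeobox factor. The root mean square difference from Gnal in centred log2(CPM + 1) was 0.139, 0.184 and 0.188, against a median of 0.631 over 15465 genes and a spread of 0.551 for Gnal itself. Meis2 was at 88.5 to 122 CPM in PS19, 144 to 308 CPM in WT and 86.0 to 232 CPM in CgA-KO/PS19. That its WT and PS19 libraries also did not overlap is no separate evidence, because it was picked as the gene closest to Gnal in these same libraries.

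In CgA-KO/PS19, Gnal did not pass the threshold against either genotype when all libraries were used, with a log2 fold change of 0.47 ± 0.22 against PS19 (edgeR FDR = 0.169) and -0.59 ± 0.23 against WT (edgeR FDR = 0.130). These comparisons and WT vs PS19 share their libraries, so they are not independent of each other. Within replicates 1 to 3, Gnal was 386 ± 115 CPM in CgA-KO/PS19 and 209 ± 23.0 CPM in PS19 (SD, n = 3 each), a log2 fold change of 0.90 (edgeR FDR = 0.0193). That set holds the alike CgA-KO/PS19 pair. In the fit with 1 mean for each genotype and set, described below, the log2 fold change in this set was 0.89. It was 0.73 with the near-identical libraries averaged and -0.10 with the striatum marker score as a covariate. Within the libraries from replicate 4 on, Gnal was 203 ± 37.8 CPM and 219 ± 2.61 CPM (SD, n = 3 each), a log2 fold change of -0.12, and CgA-KO/PS19 was then lower than WT by -1.26 (edgeR FDR = 0.0133). The 3 PS19 libraries of that set were the alike ones, and they also entered the fit that gave this FDR.

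Gnas, which encodes the broadly expressed stimulatory subunit G alpha s, was the least reproducible of the well-counted members. It was at 434, 297, 377, 772 and 172 CPM in the 5 WT libraries. It ranged from 114 to 589 CPM in PS19 (median 308) and from 300.0 to 725 CPM in CgA-KO/PS19 (median 461). The libraries of all genotypes overlapped, and the highest library of the 17 had 6.79 times the level of the lowest. The log2 fold change was 0.29 ± 0.40 in WT vs PS19 (edgeR FDR = 0.739), 0.49 ± 0.39 in CgA-KO/PS19 vs PS19 (edgeR FDR = 0.428) and 0.21 ± 0.41 in CgA-KO/PS19 vs WT (edgeR FDR = 0.827). The 95% intervals ran from -0.56 to 1.14, -0.32 to 1.31 and -0.65 to 1.06, so a log2 fold change of 1 was not excluded by any of them. A change of that size in the other direction lay outside each interval.

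The spread of Gnas was present even between libraries that were otherwise alike. PS19 replicates 4, 5 and 6 had 589, 177 and 520.2 CPM of Gnas, a 3.33-fold range, while the median of 3761 genes over these libraries ranged 1.05-fold. Gnas was at place 27 of the 3761 by this range. Gnao1 ranged 1.45-fold (place 170), Gnaz 1.10-fold and Gnaq 1.07-fold, and Gnai1, Gna11, Gnai2 and Gnal at most 1.04-fold. The Gnas locus (chr2:174284320-174346744) has 24 annotated transcripts and overlaps the antisense genes Gnasas1 and Gm20721, which were at no more than 0.928% and 0.893% of the Gnas level in any library. Gnao1 has 12 annotated transcripts, and the steady members Gnai2, Gnal and Gnai1 have 10, 8 and 1. The part of transcript assignment in the Gnas spread was not tested.

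**Figure D3:**
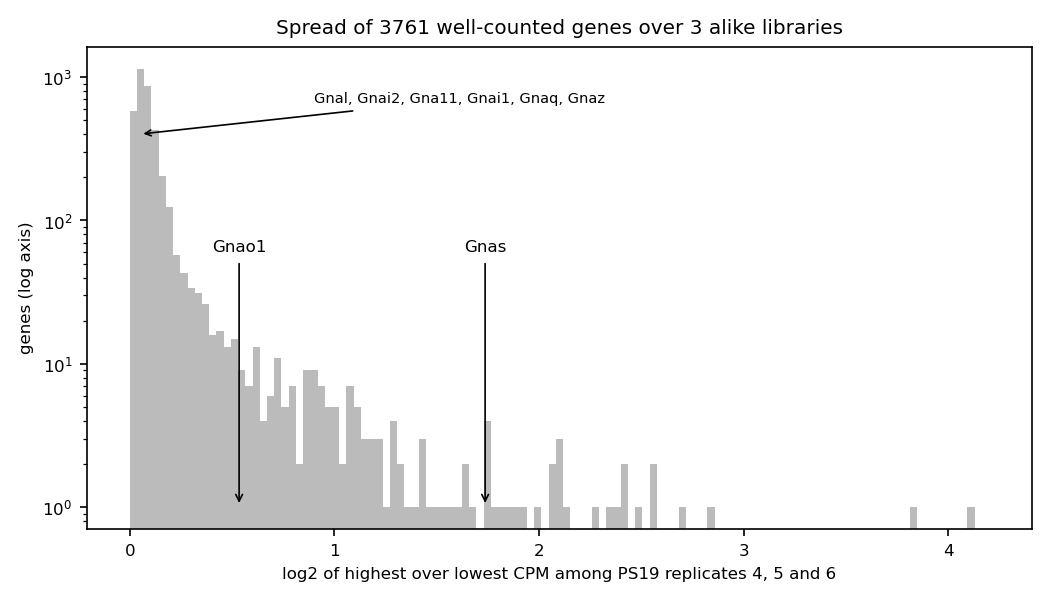
Histogram of the log2 range (highest over lowest CPM) among PS19 replicates 4, 5 and 6 for the 3761 genes that reached 500 counts in each library, with the number of genes on a log axis. Arrows mark the members: Gnas lies in the far tail with a log2 range of 1.74, Gnao1 at 0.53, and Gnal, Gnai2, Gna11, Gnai1, Gnaq and Gnaz at 0.14 or less with the bulk of the genes.

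None of the 5 Gi/o genes was called in any comparison by the fit over all libraries. Gnao1 encodes G alpha o, an abundant alpha subunit of neurons, and had the highest CPM of the class. It was at 592, 574, 623, 708 and 656 CPM in WT, at 481 to 696 CPM in PS19 (median 517) and at 478 to 921 CPM in CgA-KO/PS19 (median 689). The highest 3 CgA-KO/PS19 libraries were above every PS19 library and the lowest was below all of them. The log2 fold change in CgA-KO/PS19 vs PS19 was 0.33 ± 0.14 (edgeR FDR = 0.140). With 1 library left out it ran from 0.24 to 0.43, with an edgeR FDR of 0.0308 to 0.261. The highest value and the lowest FDR came without CgA-KO/PS19 replicate 4, the library below all PS19 libraries.

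Gnai3, which encodes an inhibitory subunit found in most tissues, was the lowest Gi/o gene and the one with the smallest unadjusted p in CgA-KO/PS19. It was at 33.1, 32.0, 35.4, 26.6 and 30.4 CPM in WT, at 28.7 to 34.7 CPM in PS19 (median 32.1) and at 33.2 to 42.1 CPM in CgA-KO/PS19 (median 37.3). Of the CgA-KO/PS19 libraries, 5 of 6 were above all WT and PS19 libraries, and replicate 1 was within their range. The log2 fold change was 0.23 ± 0.08 against PS19 (edgeR FDR = 0.0889) and 0.24 ± 0.09 against WT (edgeR FDR = 0.110). DESeq2 gave 0.25 for both, with Benjamini-Hochberg adjusted p-values of 0.0129 and 0.0264, so the call depended on the tool. In WT vs PS19 its log2 fold change was -0.02 (95% interval -0.20 to 0.17).

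Gnai2, an inhibitory subunit also abundant in microglia and blood cells, was the steadiest member, at 126 to 161 CPM over all 17 libraries. Its mean was 138 ± 8.16 CPM in PS19 (SD, n = 6) against 138 ± 7.76 CPM in WT (SD, n = 5), while CgA-KO/PS19 had 142 ± 13.9 CPM (SD, n = 6). The 95% intervals of its log2 fold changes all lay within -0.17 to 0.21.

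Gnai1 and Gnaz were lower in replicates 1 to 3 than in replicates 4 to 6 of CgA-KO/PS19. Gnai1, the inhibitory subunit enriched in brain, was at 237, 212, 218, 239 and 182 CPM in WT, at 227 to 269 CPM in PS19 (median 249) and at 159.9 to 281 CPM in CgA-KO/PS19 (median 224). Gnaz, the toxin-insensitive subunit, was at 109, 116, 97.3, 138 and 122 CPM in WT, at 98.2 to 113 CPM in PS19 (median 109) and at 67.2 to 129.7 CPM in CgA-KO/PS19 (median 95.1). In both genes the libraries of these sets did not overlap. Gnal split too but the other way, at 259 to 483 CPM in replicates 1 to 3 and 170.1 to 245 CPM in replicates 4 to 6. How many of all genes split this way was not counted, so the splits are not read as a result about the members. Over all libraries the log2 fold change in CgA-KO/PS19 vs PS19 was -0.16 ± 0.12 for Gnai1 (edgeR FDR = 0.427) and -0.15 ± 0.14 for Gnaz (edgeR FDR = 0.502).

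Of the Gq genes, none was called over all libraries either. Gnaq encodes the main activator of phospholipase C beta in brain and was at 372, 383, 321, 388 and 359.9 CPM in WT. It was at 371 to 407 CPM in PS19 (median 392) and at 275 to 427 CPM in CgA-KO/PS19 (median 348). The CgA-KO/PS19 libraries formed separate sets, with replicates 1 to 3 at 275, 295 and 286 CPM, below every WT and PS19 library, and replicates 4 to 6 at 402, 407 and 427 CPM, of which replicate 6 was above them all. How many of all genes split this way was not counted for Gnaq either. The log2 fold change was -0.10 ± 0.12 in WT vs PS19 (edgeR FDR = 0.669), -0.17 ± 0.11 in CgA-KO/PS19 vs PS19 (edgeR FDR = 0.343) and -0.07 ± 0.12 in CgA-KO/PS19 vs WT (edgeR FDR = 0.804).

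Gna11, which encodes a close relative of G alpha q with the same receptors and effector, was at 131, 141, 133, 76.9 and 130.4 CPM in WT. It was at 134 to 149 CPM in PS19 (median 141) and at 82.7 to 153 CPM in CgA-KO/PS19 (median 130.2). The low WT value was in replicate 4, the shallowest library. Its log2 fold changes were -0.20 ± 0.15, -0.15 ± 0.14 and 0.05 ± 0.15 in the same order of comparisons, with edgeR FDR values of 0.484, 0.535 and 0.890.

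Gna14, a Gq subunit known mainly from other tissues, was barely detected, with 399 counts in all libraries together. It was at 0 counts in WT replicate 4, PS19 replicate 1 and CgA-KO/PS19 replicates 2, 5 and 6. A count of 0 allowed up to 9 counts (3 fragments), or 0.164 to 1.03 CPM in those libraries, a limit that covers counting error only. Elsewhere it was at 0.115 to 0.268 CPM in PS19, 0.318 to 0.531 CPM in WT and 0.196 to 0.339 CPM in CgA-KO/PS19. A genotype difference was not detectable at this depth, with 95% intervals of the log2 fold change from -0.49 to 3.01 in WT vs PS19 and from -1.83 to 1.58 in CgA-KO/PS19 vs PS19.

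**Figure D4:**
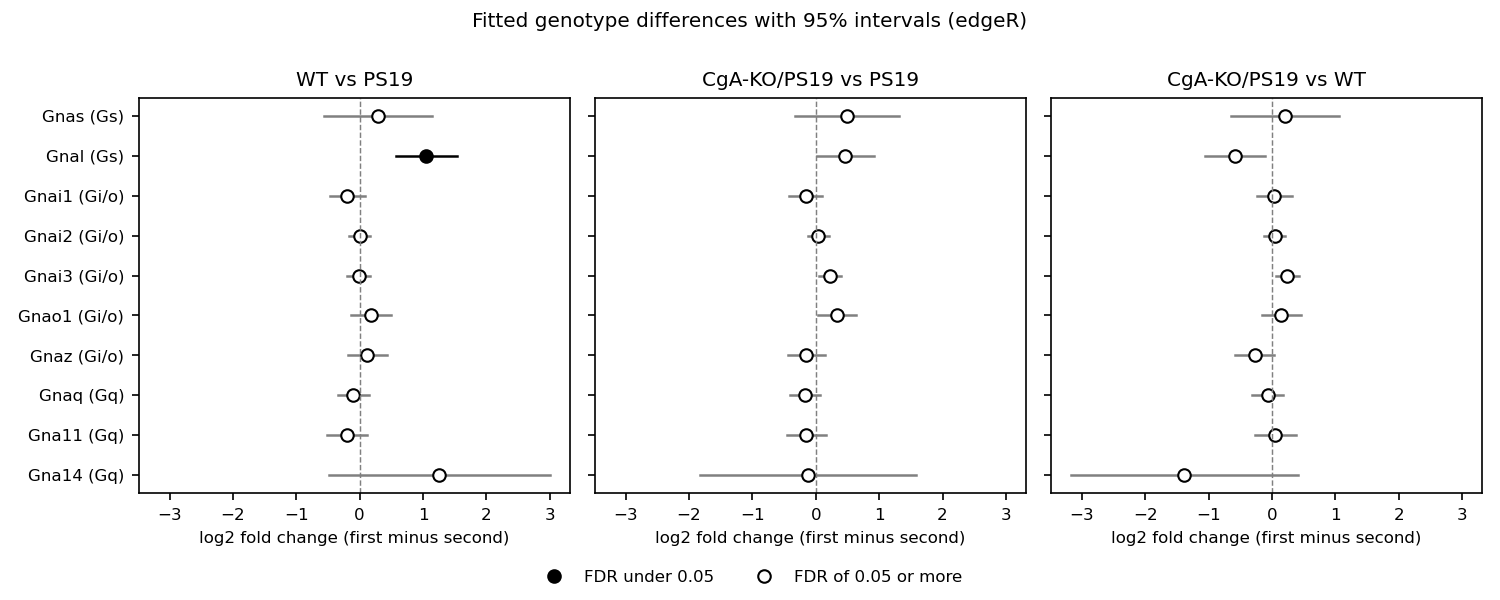
Log2 fold change (first genotype minus second) of each member with its 95% interval from the edgeR fit over 17 libraries, 1 panel per comparison on a common axis. Only Gnal in WT vs PS19 is filled, the mark of an FDR under 0.05. The intervals of Gnas and Gna14 are the widest and those of Gnai2 and Gnai3 the narrowest.

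In CgA-KO/PS19 vs PS19, 0 of 10 members were called by edgeR, against 9.72% of all genes, and 0 of 10 had libraries that did not overlap, against 6.63%. Unadjusted p was under 0.05 for 3 of 10 members (Gnal, Gnai3 and Gnao1), against 27.8% of all genes, and DESeq2 called 1. Against WT, 0 of 10 were called in CgA-KO/PS19 by edgeR (6.46% of all genes) and 0 of 10 did not overlap (3.6%), with an unadjusted p under 0.05 for 2 of 10 (Gnal and Gnai3) against 21.7% of all genes, and DESeq2 called 1. DESeq2 also called more of all genes than edgeR in both comparisons, so its counts are not read as results about the members. The median size of the log2 fold change over the members, sign ignored, was 0.19 in WT vs PS19, 0.16 in CgA-KO/PS19 vs PS19 and 0.18 in CgA-KO/PS19 vs WT. The medians over all genes tested were 0.26, 0.29 and 0.26.

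The comparison of CgA-KO/PS19 with PS19 was not the same in replicates 1 to 3 as in the libraries from replicate 4 on. An edgeR fit with 1 mean for each genotype and set, added after the data had been seen, tested this difference directly, and it passed the FDR threshold for 3 of 10 members, against 11.7% of all genes. Gnaq was lower in CgA-KO/PS19 than in PS19 by -0.48 on the log2 scale in replicates 1 to 3 (285 ± 10.0 against 397 ± 15.6 CPM, SD, n = 3 each) and at 0.10 in the others (412 ± 13.3 against 385 ± 12.6 CPM, SD, n = 3 each), a difference of -0.57 ± 0.11 (edgeR FDR = 0.00617). Gnai1 was at -0.53 and 0.18, a difference of -0.71 ± 0.16 (edgeR FDR = 0.0130), and Gnaz at -0.48 and 0.11, a difference of -0.59 ± 0.17 (edgeR FDR = 0.0415). Gnal and Gnai2 went the other way, with differences of 0.99 ± 0.31 (edgeR FDR = 0.0519) and 0.33 ± 0.11 (edgeR FDR = 0.0694). The 3 members called in this test were lower in replicates 1 to 3 of CgA-KO/PS19, but the members as a group had no common direction. The unadjusted edgeR p was under 0.05 for 5 of 10 members, Gnal and Gnai2 among them, and the share of all genes was not counted.

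The same test gave 1 of 10 members in CgA-KO/PS19 vs WT (5.47% of all genes), which was Gnaq with a difference of -0.47 ± 0.12 (edgeR FDR = 0.0380). In WT vs PS19 it gave 0 of 10 (0.0564% of all genes), and no member had an unadjusted p under 0.05 there. Replicates 1 to 3 of CgA-KO/PS19 include the alike pair and the libraries with high striatum markers. With the near-identical libraries averaged, the Gnaq difference in CgA-KO/PS19 vs PS19 was -0.55 ± 0.18 with an edgeR FDR of 0.230, the Gnai1 difference -0.63 and the Gnaz difference -0.53. That fit called 0 of 10 members (2 of 10 at an unadjusted p under 0.05) but also only 0.00447% of all genes, so its count says nothing about the members. With the striatum score as a covariate the differences were -0.38 ± 0.14 for Gnaq (edgeR FDR = 0.152), -0.33 for Gnai1, -0.20 for Gnaz and 0.0023 for Gnal, with 0 of 10 members called against 2.02% of all genes. CgA-KO/PS19 replicate 2, with 511 CPM of striatum markers, had Gnaq at 295 CPM beside 275 and 286 CPM in replicates 1 and 3. Markers of other cells split the same way in CgA-KO/PS19, where the summed levels of 10 of 13 marker lists did not overlap between replicates 1 to 3 and 4 to 6, against 5 of 13 in WT and 5 of 13 in PS19. These counts are not on equal terms, because WT had only 2 libraries from replicate 4 on and PS19 replicates 4 to 6 were alike. In CgA-KO/PS19, astrocyte markers were at 1213 to 1374 CPM in replicates 1 to 3 and 644 to 878 CPM in the others, and oligodendrocyte markers at 1831 to 2167 CPM and 1240 to 1375 CPM. Markers of GABA neurons were at 420 to 565 CPM and 676 to 771 CPM. The part of these cells in the member levels was not tested, and the parts of sex, of the dissection and of the alike libraries cannot be told apart.

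The class make-up was described by the share of each class in the sum of CPM per kb over the 10 members, with no test. Gi/o genes made up the largest share in every genotype, 58.5 ± 3.02% in PS19 (SD, n = 6), 55.4 ± 0.818% in WT (SD, n = 5) and 57.3 ± 2.81% in CgA-KO/PS19 (SD, n = 6). Gs genes made up 13.8 ± 4.42%, 20.5 ± 3.62% and 18.7 ± 3.87% in the same order. Gq genes made up 27.8 ± 1.61%, 24.2 ± 2.89% and 24.0 ± 2.71%. The ranges of the Gs share overlapped, at 9.16 to 20.0% in PS19, 16.4 to 25.7% in WT and 12.5 to 23.1% in CgA-KO/PS19.

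Part of the spread of the Gs share came from Gnas, so the shares were also taken over the members without it. Gnal then made up 5.92 ± 0.415% in PS19, 11.9 ± 2.58% in WT and 8.25 ± 3.80% in CgA-KO/PS19, with 9.61 to 14.9% in WT against 5.15 to 6.29% in PS19. In the same order the Gq share without Gnas was 30.3 ± 0.639%, 26.7 ± 2.28% and 27.0 ± 2.59%, and the Gi/o share 63.8 ± 0.988%, 61.4 ± 2.63% and 64.7 ± 3.71%. In absolute level the Gi/o sum was 206 ± 8.86 CPM per kb in PS19, 205 ± 11.6 in WT and 210.2 ± 23.5 in CgA-KO/PS19, which differed by less than the spread within each genotype.

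**Figure D5:**
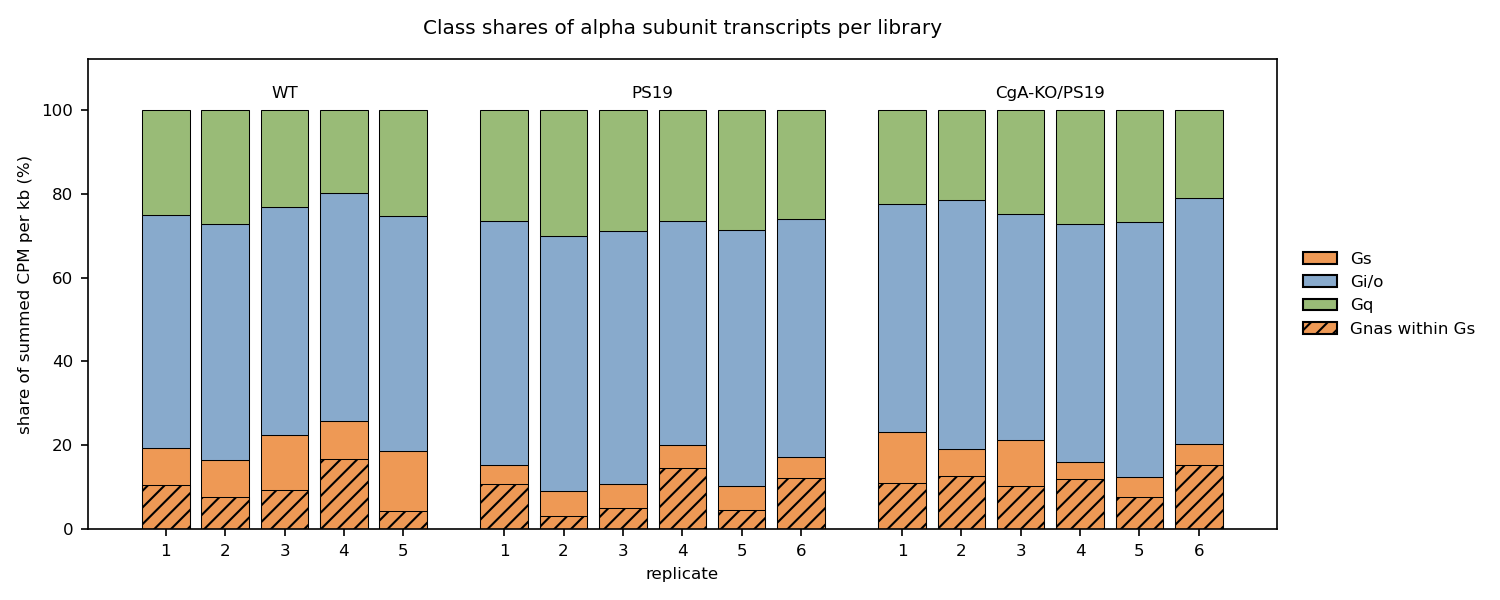
Share of each class in the summed CPM per kb of the 10 members (stacked bars from 0 to 100%), 1 bar per library and replicate number, with the Gnas part of the Gs share hatched. Gi/o is the largest share in every library, and the Gs share runs from 9.16% to 25.7%, with a hatched part that changes from bar to bar within each genotype.

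The genes that act with the alpha subunits were counted in the same way. Of 83 genes tested, 7 rose and 3 fell in WT relative to PS19, 6 rose and 3 fell in CgA-KO/PS19 relative to PS19, and 3 rose and 1 fell in CgA-KO/PS19 relative to WT, which is 12%, 10.8% and 4.82% of them, beside the 5.9%, 9.72% and 6.46% of all genes given above. These lists held beta and gamma subunits, RGS proteins, chaperones and modulators of alpha subunits, adenylate cyclases, Gq effectors, GIRK channels, receptor kinases and arrestins, subunits of protein kinase A and the other alpha subunits. In WT vs PS19 the calls were 1 beta subunit, 1 gamma subunit, 3 RGS genes, 2 chaperones and modulators, 2 adenylate cyclases and 1 GIRK channel. The calls in CgA-KO/PS19 vs PS19 were 1 beta subunit, 2 gamma subunits, 1 RGS gene, 2 adenylate cyclases, 1 GIRK channel and 2 subunits of protein kinase A.

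The partners of Gnal varied with it in part. Ric8b, the chaperone that folds Gs-class alpha subunits, was at 56.0 to 62.7 CPM in PS19, 72.7 to 113 CPM in WT and 61.3 to 79.2 CPM in CgA-KO/PS19, and its WT and PS19 libraries did not overlap. Its log2 fold change was 0.61 ± 0.11 in WT vs PS19 (edgeR FDR = 0.00268) and -0.38 ± 0.11 in CgA-KO/PS19 vs WT (edgeR FDR = 0.0413). Gng7, the gamma subunit that pairs with G alpha olf, was at 48.7 to 65.6 CPM in PS19, 60.5 to 308 CPM in WT and 30.9 to 469.5 CPM in CgA-KO/PS19. Adcy5, the adenylate cyclase of striatal neurons, was at 110.1 to 137, 146 to 647 and 66.5 to 609.9 CPM in the same order. Neither passed the threshold in any comparison: in WT vs PS19 the log2 fold change was 1.57 for Gng7 (edgeR FDR = 0.150) and 1.49 for Adcy5 (edgeR FDR = 0.0942). Gnb1, the most widely used beta subunit, was at 458 to 566 CPM in all libraries and had a log2 fold change of -0.14 in WT vs PS19 (edgeR FDR = 0.270).

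Among the regulators, Rgs9, which speeds GTP hydrolysis in striatal neurons, had the largest change. It was at 4.68 to 8.45 CPM in PS19, 33.9 to 197 CPM in WT and 5.86 to 129 CPM in CgA-KO/PS19, with log2 fold changes of 4.04 ± 0.81 in WT vs PS19 (edgeR FDR = 0.00615) and 2.90 ± 0.76 in CgA-KO/PS19 vs PS19 (edgeR FDR = 0.0252). Rgs6, of the same RGS subfamily, moved the opposite way in WT vs PS19, at 34.3 to 61.1 CPM in WT and 79.1 to 100.7 CPM in PS19, a log2 fold change of -0.93 ± 0.24 (edgeR FDR = 0.0267). Gprin3, of a family of proteins that bind Gi/o subunits, was at 26.4 to 59.7 CPM in WT and 15.0 to 24.5 CPM in PS19, a log2 fold change of 1.19 (edgeR FDR = 0.0473). In CgA-KO/PS19, Gprin3 ran from 14.7 to 54.3 CPM (median 19.9). Rgs9 is a gene of striatal neurons, and its high CgA-KO/PS19 values stood beside the striatum marker levels given above.

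Other calls lay among subunits and effectors. Gnb4, a beta subunit, was at 14.7 to 39.3 CPM in PS19, 25.7 to 72.4 CPM in WT and 36.3 to 67.4 CPM in CgA-KO/PS19, and was called in WT vs PS19 (log2 fold change 1.25, edgeR FDR = 0.0150) and CgA-KO/PS19 vs PS19 (1.36, edgeR FDR = 0.00783). The gamma subunit gene Gng12 rose in CgA-KO/PS19 relative to both other genotypes, at 64.2 to 99.5 CPM against 38.9 to 64.1 CPM in WT and 52.4 to 55.0 CPM in PS19, with log2 fold changes of 0.55 against PS19 (edgeR FDR = 0.00819) and 0.64 against WT (edgeR FDR = 0.00575). Gng5 followed with 0.65 and 0.70 (edgeR FDR = 0.0334 and 0.0403). Kcnj5, a GIRK channel subunit opened by beta and gamma subunits, was low throughout, at 0.0967 to 0.947 CPM in PS19, 0.799 to 1.62 CPM in WT and 0.516 to 1.47 CPM in CgA-KO/PS19, and was called in both comparisons with PS19 (2.26, edgeR FDR = 0.0173, and 1.92, edgeR FDR = 0.0271). Prkar2b, a regulatory subunit of protein kinase A, was called in CgA-KO/PS19 vs PS19 (0.93, edgeR FDR = 0.0146). Of the 9 adenylate cyclase genes, 2 fell in WT relative to PS19, 2 fell in CgA-KO/PS19 relative to PS19, and 1 rose in CgA-KO/PS19 relative to WT.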

How the data were processed

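Gene counts of 17 mouse prefrontal cortex libraries were analysed. The authors trimmed the reads with Trimmomatic 0.39, mapped them to mm10 with STAR 2.7.10b, quantified transcripts with StringTie 1.3.6 and deposited gene-level counts made with prepDE. These are coverage rescaled by a read length, not read tallies. StringTie divides reads among transcripts by estimation, which can move counts between overlapping models, and the annotation and strand setting were not given in the sources used here. Library totals ran from 8838334 to 227651681 counts.

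From these counts, edgeR 4.0.16 (R 4.3.3) was run with TMM scaling, filterByExpr, all libraries in 1 fit and no covariate. It tested 23062 genes with the quasi-likelihood test and Benjamini-Hochberg adjustment, and an FDR under 0.05 was a call. CPM used the TMM library sizes. Levels were compared between genes only per kb of exon union (GENCODE M21, 52029 of 56953 identifiers matched). DESeq2 1.42.0, limma 3.58.1 voom, other filters and scalings, a replicate block, marker scores and libraries left out were alternatives, as was averaging PS19 replicates 4 to 6. Averaging CgA-KO/PS19 replicates 1 and 3 too, the sets by replicate number and the test of their difference were added after seeing the data. The fits were tested on simulated counts before use. The study describes its n as biological replicates, and the labels do not tie libraries to animals.

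The members, pathway lists and marker lists were chosen with earlier results of these data known. Named were all members, up to 6 called genes of the pathway lists per comparison with the largest fold change, the partners Gng7, Adcy5, Gnb1 and Ric8b, adenylate cyclases only as counts, the 3 genes most like each called member, and Chga, Ddx3y and the antisense genes at Gnas as checks. Marker genes are named from fixed lists. Of these lists, striatum, cortical excitatory neuron, GABA neuron, thalamus, olfactory epithelium, astrocyte, oligodendrocyte, microglia, endothelial, mural, choroid plexus, meninges and blood markers were measured. Sequences came from the GENCODE M21 transcript sequences, with positions on mm10. Protein sequences were not used here.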

Additional observations from a re-analysis of the deposited data

Results flagged for a closer look

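Gnal in PS19 replicate 1 was 182 CPM, the lowest of its genotype, with the next library at 215.6 CPM, a gap of 0.802 of the whole range of the 6 libraries. Gna11 in WT replicate 4, the shallowest library, was 76.9 CPM with the next at 130.4 CPM, a gap of 0.840 of the range. Both passed Dixon's 95% limit, and 39 groups were tested, of which chance flags about 1 in 20.

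The difference between genotypes differed between replicates 1 to 3 and the libraries from replicate 4 on by edgeR's interaction test with Benjamini-Hochberg adjustment. In CgA-KO/PS19 vs PS19 the log2 fold change in the first set minus that in the second was -0.71 for Gnai1, -0.59 for Gnaz and -0.57 for Gnaq, and in CgA-KO/PS19 vs WT it was -0.47 for Gnaq. In each case CgA-KO/PS19 was lower in replicates 1 to 3. With the near-identical libraries averaged they were -0.63, -0.53, -0.55 and, against WT, -0.45, in a fit that called 0.00447% and 0.0223% of all genes in these comparisons and none of the members. With the striatum marker score as a covariate they were -0.33, -0.20, -0.38 and -0.28, and none had an FDR under 0.05.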

How the results depend on the processing

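The number of members called was 1 in WT vs PS19, 0 in CgA-KO/PS19 vs PS19 and 0 in CgA-KO/PS19 vs WT. In CgA-KO/PS19 vs PS19 it was 1 with DESeq2, with DESeq2 size factors in edgeR and with a minimum of 10 counts in every library, and 5 with only replicates 1 to 3 (Gnal and Gnao1 higher, Gnai1, Gnaz and Gnaq lower, against 31.1% of all genes). In CgA-KO/PS19 vs WT it was 1 with DESeq2, with that minimum and with only replicates from 4 on, and 2, Gnaz and Gnaq, with the striatum score as a covariate (22.0% of all genes) and with only replicates 1 to 3 (20.7%). In WT vs PS19 it was 2, again Gnaz (0.71) and Gnaq, with the striatum score (17.7%) and 0 with PS19 replicates 4 to 6 averaged and with only replicates 1 to 3. With 1 library left out it was 1 to 1 in WT vs PS19, 0 to 1 in CgA-KO/PS19 vs PS19 (1 without CgA-KO/PS19 replicate 4) and 0 to 1 in CgA-KO/PS19 vs WT (1 without CgA-KO/PS19 replicate 1). The Gnal log2 fold change in WT vs PS19 was then 0.95 to 1.13. With a replicate block it was 1.02 (edgeR FDR = 0.0426) and the members called stayed at 1, 0 and 0, while the calls over all genes fell to 660, 654 and 614 from 1361, 2242 and 1489. Deviations of same-numbered libraries had correlations of -0.23 to 0.44. Replicate 1 of WT and PS19 (0.124) and replicate 3 of CgA-KO/PS19 and WT (0.437) matched best with their own number, and the others did not. The numbers thus gave no general pairing, and whether some libraries shared a litter or batch was not tested. DESeq2 called 2396, 3958 and 2564 genes, limma voom 3967, 5229 and 2458, and the fit with PS19 replicates 4 to 6 averaged 440, 482 and 1001. Where no share of all genes stands beside a count of members, that count is not read as a result about the members.

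Some log2 fold changes turned direction, and the cause was not tested. In WT vs PS19, Gnai2 was 0.00172 with DESeq2, 0.0089 with its size factors, 0.017 with the minimum of 10 counts, 0.00331 with only the 2 genotypes, 0.037 with PS19 replicates 4 to 6 averaged, 0.035 with the CgA-KO/PS19 pair averaged too and 0.018 with only replicates 1 to 3. Gnai3 was 0.00119 with the minimum of 10 counts, 0.011 with voom, 8.1e-05 with the PS19 libraries averaged and 0.10 with only replicates 1 to 3. In CgA-KO/PS19 vs PS19, Gnai2 was -0.015 without a filter, and Gna14 0.23 with the PS19 libraries averaged. Voom in CgA-KO/PS19 vs WT gave -0.031 for Gnai1 and -0.017 for Gna11. With only replicates 1 to 3, CgA-KO/PS19 vs PS19 gave 1.21 for Gna14 and 0.063 for Gna11, and CgA-KO/PS19 vs WT -0.26 for Gnai1. With only replicates from 4 on, CgA-KO/PS19 vs PS19 gave 0.091 for Gnaz, 0.16 for Gnai1, -0.12 for Gnal, 0.077 for Gnaq and -0.15 for Gnai2, and CgA-KO/PS19 vs WT 0.15 for Gnaq and -0.13 for Gnai2. With the striatum score, WT vs PS19 gave -0.47 for Gna14, 0.35 for Gnaq, 0.058 for Gnai3 and 0.31 for Gnai1, CgA-KO/PS19 vs PS19 gave 0.083 for Gnaz, -0.0065 for Gnai2, 0.048 for Gnai1, -0.077 for Gnal and 0.019 for Gnaq, and CgA-KO/PS19 vs WT gave -0.048 for Gnas and -0.26 for Gnai1. With 1 library left out, WT vs PS19 ran from -0.071 to 0.53 for Gnas, -0.026 to 0.0195 for Gnai2 and -0.061 to 0.035 for Gnai3, CgA-KO/PS19 vs PS19 from -0.53 to 0.12 for Gna14, and CgA-KO/PS19 vs WT from -0.035 to 0.12 for Gnai1 and -0.076 to 0.15 for Gna11.

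The class shares moved because the lengths did. With the longest coding transcript, Gs was 31.3, 23.1 and 29.7% in WT, PS19 and CgA-KO/PS19, Gi/o 50.8, 55.2 and 52.7%, and Gq 17.9, 21.6 and 17.5%. Without division by length they were 34.1, 24.9 and 31.2%, 46.0, 50.3 and 49.1%, and 19.9, 24.8 and 19.7%. Gs was lowest in PS19 on each scale. The other values, 332 of single members under these alternatives and 321 with 1 library left out, kept their direction and side of the threshold. The minimum of 10 counts removed Gna14, for which the depth allowed no comparison.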

Other observations

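Markers of other cells and regions were measured in the same fit. Of 3 GABA neuron markers, 2 were lower in CgA-KO/PS19 than in PS19 and 3 lower than in WT, and their sum was 420 to 771 CPM in CgA-KO/PS19 against 859 to 1019 CPM in PS19 and 845 to 1216 CPM in WT. Of 5 astrocyte markers, 2 had higher levels in CgA-KO/PS19 than PS19 and 1 was lower in WT than in PS19. Of 4 choroid plexus markers, 3 were higher in WT than in PS19 and 2 lower in CgA-KO/PS19 than in WT, with a sum of 8.82 to 1067 CPM in WT and 3.15 to 4.08 CPM in PS19. Of 7 cortical excitatory markers, 1 was lower in WT and 1 lower in CgA-KO/PS19 than in PS19. Single calls were made in thalamus (1 of 3, CgA-KO/PS19 above PS19), GABA neuron (1 of 3, higher in WT than in PS19), oligodendrocyte (1 of 5, higher in CgA-KO/PS19 than in WT) and meninges markers (1 of 4, higher in WT than in PS19 and lower in CgA-KO/PS19 than in WT). The 3 olfactory epithelium, 6 microglia, 5 endothelial, 4 mural and 4 blood markers gave no call in edgeR, and other tools were not summed over these lists. The part of these cells in the levels of the alpha subunits was not tested.

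Other well-counted genes also swung between the alike PS19 replicates 4, 5 and 6. Pcdhga2, a protocadherin of a clustered locus with shared exons, was at 54.6, 22.2 and 385 CPM, Tmem170b at 9.13, 121 and 8.42 CPM, and Sesn3 at 224, 32.6 and 231 CPM, ranges of 17.3-fold, 14.4-fold and 7.08-fold. These 3 were chosen after their values were seen, as the genes with the widest range.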
